A study of Oryza sativa with 4 samples.

Results

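The genes described here are 10 components of the rice small RNA machinery: the Dicer genes DCL1, DCL3a, DCL3b and DCL4, the RNA-dependent RNA polymerase genes RDR2 and RDR6, and the Argonaute genes AGO1a, AGO1b, AGO4a and AGO4b. They were taken as the rows whose ID equals that of a listed gene, 10 of the 37858 gene IDs in the deposited table, and all 10 passed the filter on low counts. The table holds IDs without names, so each name is the one under which the ID was listed. In a RefSeq gene table of the assembly ASM3414082v1, 6 of the 10 names occurred, and all 6 lay on the chromosome that the digits after Os in the ID give. That table did not pair names with these IDs.

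Leaves of the rice cultivar Nipponbare (Oryza sativa) were profiled by poly(A) RNA sequencing. The seed from which the compared plants descend had been heated or not, and the leaves were those of the progeny. By their titles, 2 libraries came from control seeds and 2 from heated seeds. The treatment label gives 25 °C for control 1 but 30 °C for control 2, heated 1 and heated 2, and the labels do not say whether the entry for control 2 is an error. All 4 libraries share the cultivar and the tissue label. The labels do not state that replicates are separate plants or cultures. Every p-value therefore reflects library-to-library spread, part of which may be technical. The leaf label was not checked against marker genes, because the table does not name any.

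Plants silence genes with small RNAs that Dicer enzymes cut from double-stranded RNA and that Argonaute proteins then carry to matching transcripts or loci. DCL1 cuts microRNA precursors, and AGO1 proteins carry microRNAs to the transcripts they cleave or repress. RDR6 copies certain RNAs into double strands that DCL4 cuts into secondary small interfering RNAs, among them those that pattern leaves. RDR2 and DCL3a make the longer small interfering RNAs that AGO4 proteins use to direct DNA methylation, a pathway that acts mostly on transposons and on genes near them. DCL3b is known from rice for phased small RNAs of the male reproductive organs.

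Total expected counts per library ranged from 15444235 in control 1 to 17298384 in heated 1. Control 1 stood apart: its 10 most abundant genes took 8.51% of its counts, against 6.18% to 6.65% elsewhere. The median absolute log2 difference over all 22184 tested genes was 0.27 for the control pair and 0.16 for the heated pair. The counts of called genes below are also given without it.

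The first comparison was between leaves of progeny from heated seeds and leaves of progeny from control seeds. They are called heated and control leaves below, although the heating was that of the seeds. None of the 10 genes was called: 0 of 10 had an adjusted p under 0.05 in edgeR's quasi-likelihood test, in which 0.699% of all tested genes were called. At an unadjusted p under 0.05 the count was also 0 of 10, against 9.23% of all tested genes. DESeq2 likewise gave 0 of 10 at both thresholds, where 2.36% and 7.46% of its tested genes passed. For edgeR's exact test (3.3% and 9.56%) and limma-voom (0.591% and 9.19%) the count was 0 of 10 as well. The fitted levels in heated relative to control leaves ran from 0.829-fold for DCL3b to 1.20-fold for RDR6. The median log2 fold change of the 10 genes was 0.087, beside 0.0061 for all tested genes. From 38.7% (for DCL3b) to 84.4% (for AGO4a) of all tested genes had a larger absolute log2 fold change than the gene in question. The 95% intervals of all 10 covered 0 and together spanned log2 values from -0.88 to 0.71. In fold terms this is 0.542 to 1.64, so a 2-fold change lay outside the interval of all 10 genes in this fit. With 1 library left out this failed for DCL3b alone, whose interval reached log2 values of -1.02 without control 1, -1.28 without heated 1 and -1.12 without heated 2. With all 4 libraries the SE of the DCL3b log2 fold change was 0.25 in edgeR's quasi-likelihood fit and 0.40 with DESeq2. The 2-fold bound for DCL3b therefore depends on the method too. Leaves are mixtures of cells, so fewer cells of a type and less RNA per cell cannot be told apart here.

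**Figure D1:**
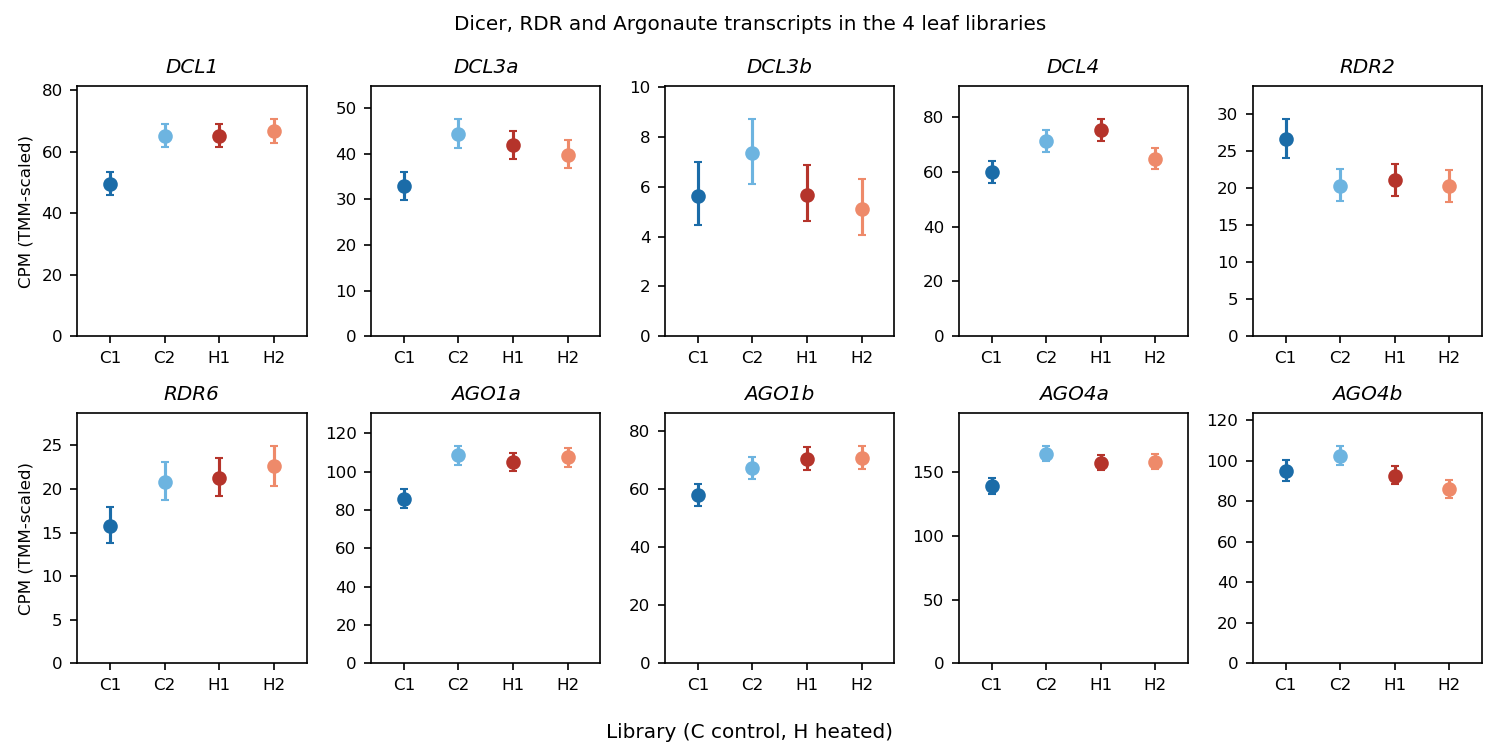
Level in CPM (TMM-scaled counts, vertical axes from 0) of each gene in control 1 (C1), control 2 (C2), heated 1 (H1) and heated 2 (H2). Bars are exact 95% Poisson intervals and cover counting error only. Control 1 is the lowest point for 7 of the 10 genes and the highest for RDR2.

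Levels are given as CPM, the usual library-scaled count, computed with TMM-scaled library sizes. CPM is not divided by gene length, so levels are compared between libraries and not between genes. Of the 10 genes, 7 had overlapping groups. In 2 both heated libraries lay above both controls (21% of all tested genes), and in 1 both lay below (19.5%), together 3 of 10, where 40.5% of all tested genes had groups that did not overlap.

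Among the Dicer genes, DCL1 (Os03g0121800) had 49.5 and 65.2 CPM in control 1 and 2 and 65.1 and 66.7 CPM in heated 1 and 2. Control 2 fell between the heated libraries, and control 1 alone was low. The group means were 57.4 ± 11.1 and 65.9 ± 1.14 CPM (SD, n = 2), a log2 fold change of 0.20 (95% interval -0.20 to 0.60; edgeR adjusted p = 0.784). DCL1 counts were fractional in all 4 libraries (720.57 in control 1, for example), so some of its reads were also assigned to other genes.

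DCL3a (Os01g0909200), the Dicer of the DNA methylation pathway, had 32.8 and 44.4 CPM in the controls and 41.9 and 39.8 CPM in the heated libraries. The controls lay on either side of the heated pair, and the log2 fold change was 0.079 (95% interval -0.36 to 0.51). DCL4 (Os04g0509300), which cuts secondary small interfering RNAs, had 59.9 and 71.1 CPM in the controls and 75.1 and 64.7 CPM in the heated libraries. Here too the groups overlapped, and the heated pair was nearly as far apart as the controls. Its log2 fold change was 0.094 (95% interval -0.27 to 0.46).

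DCL3b (Os10g0485600), the reproductive Dicer, was detected in every leaf library, with 82 counts in control 1, 127 in control 2, 101 in heated 1 and 86 in heated 2. These are 5.63, 7.33, 5.66 and 5.10 CPM in the same order. Control 2 was the high library and the other 3 lay between 5.10 and 5.66 CPM. The exact 95% Poisson interval of control 2, 6.11 to 8.72 CPM, overlapped those of control 1 (4.48 to 6.99), heated 1 (4.61 to 6.87) and heated 2 (4.08 to 6.30). DCL3b had the fewest counts and the widest interval, a log2 fold change of -0.27 (95% interval -0.88 to 0.34; edgeR adjusted p = 0.808). A gene-wise edgeR estimate of variation between libraries beyond counting was also largest for DCL3b, 20.6%, against 11.6% to 15.8% for the other genes. The quasi-likelihood interval is not computed from that estimate, and what sets its width was not tested.

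Of the polymerase genes, RDR6 (Os01g0527600), whose product starts secondary small interfering RNAs, had 15.8 and 20.8 CPM in the controls and 21.3 and 22.6 CPM in the heated libraries. Both heated libraries were above both controls, but control 2 and heated 1 were closer to each other than the controls were. The means were 18.3 ± 3.56 and 21.9 ± 0.922 CPM (SD, n = 2). The log2 fold change of 0.26 (95% interval -0.19 to 0.71) had the lowest edgeR adjusted p of the 10 genes, 0.753.

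RDR2 (Os04g0465700), the polymerase of the DNA methylation pathway, went the other way between the libraries. It had 26.6 CPM in control 1, 20.4 CPM in control 2, and 21.1 and 20.3 CPM in heated 1 and 2. Control 1 alone was high, and control 2 lay between the heated libraries. Its log2 fold change was -0.18 (95% interval -0.62 to 0.26). RDR2 counts were fractional in all 4 libraries (387.59 in control 1), so its level too includes reads divided among genes.

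For the microRNA Argonautes, AGO1a (Os02g0672200) had 85.8 and 108 CPM in the controls and 105 and 107 CPM in the heated libraries. Control 2 was the highest library and control 1 the lowest, so the groups overlapped. AGO1b (Os04g0566500) had 57.8 and 67.1 CPM in the controls and 70.2 and 70.7 CPM in the heated libraries. Its groups did not overlap, with means of 62.4 ± 6.61 and 70.4 ± 0.345 CPM (SD, n = 2), but the controls differed by more than control 2 did from either heated library. The log2 fold changes were 0.13 (95% interval -0.25 to 0.50) for AGO1a and 0.17 (95% interval -0.15 to 0.50) for AGO1b.

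Of the Argonautes that act in DNA methylation, AGO4a (Os01g0275600) had 139 and 165 CPM in the controls and 158 CPM in both heated libraries. The heated libraries lay between the controls, and the log2 fold change was 0.055 (95% interval -0.30 to 0.40), the smallest of the 10 in size. AGO4b (Os04g0151800) had 95.2 and 103 CPM in the controls and 92.7 and 86.2 CPM in the heated libraries. It was the only gene of the 10 with both heated libraries below both controls. Its means were 98.9 ± 5.23 and 89.4 ± 4.64 CPM (SD, n = 2), with a log2 fold change of -0.14 (95% interval -0.46 to 0.17; edgeR adjusted p = 0.799).

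By pathway arm, the 3 microRNA genes (DCL1, AGO1a, AGO1b) had a median log2 fold change of 0.17, and the pair RDR6 and DCL4 had 0.18. The 4 genes of the DNA methylation arm (DCL3a, RDR2, AGO4a, AGO4b) had a median of -0.045, with 2 fitted values above and 2 below 0. These medians depend on control 1. Without control 1 the fitted log2 values were 0.011 for DCL1, -0.036 for AGO1a and 0.065 for AGO1b. In the same fit RDR6 was at 0.070 and DCL4 at -0.029. For DCL3a, RDR2, AGO4a and AGO4b the values were -0.13, 0.019, -0.066 and -0.20. No member of any arm passed the test, and the differences between arms were not tested.

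**Figure D2:**
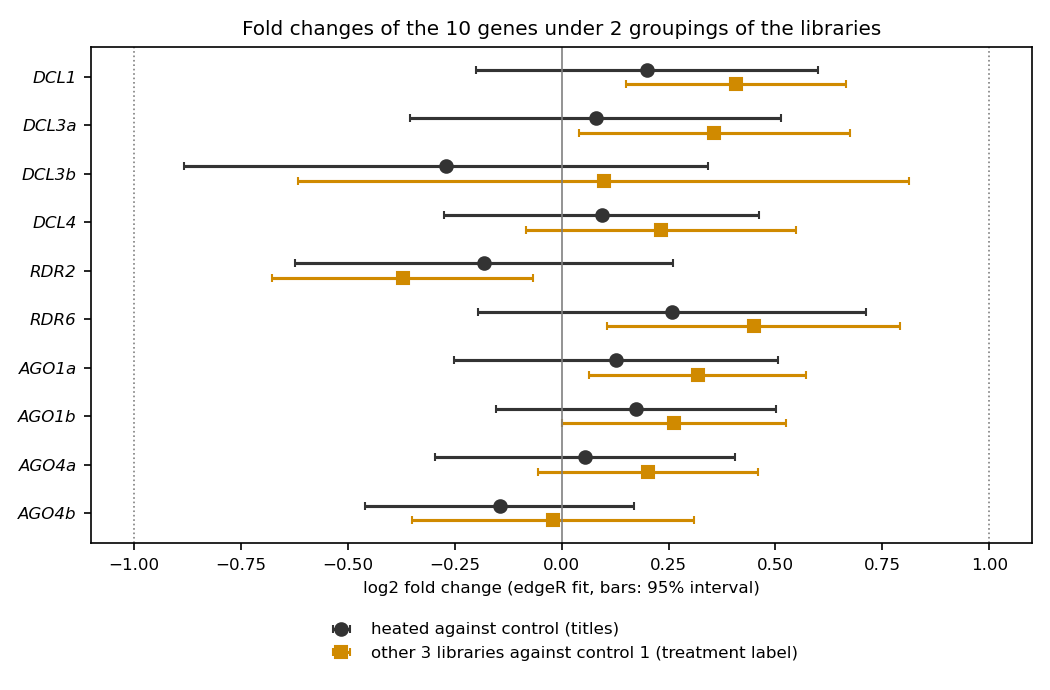
Log2 fold changes (horizontal axis) of the 10 genes with 95% intervals from edgeR. Black circles compare heated with control libraries by title, and orange squares compare the other 3 libraries with control 1 by the treatment label; dotted lines mark a 2-fold change. All black intervals cover 0, whereas 6 orange ones do not.

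In all 10 genes the controls lay further apart than the heated libraries, but only slightly for DCL4 and AGO4b. The SDs of controls and heated libraries were 7.96 and 7.33 CPM for DCL4 and 5.23 and 4.64 CPM for AGO4b. Control 2 was above control 1 in 9 of 10 genes, by 1.08-fold for AGO4b to 1.35-fold for DCL3a, and RDR2 was the exception at 0.764-fold. Between heated 1 and heated 2 the ratio ran from 0.862 for DCL4 to 1.06 for RDR6. The median absolute log2 difference over the 10 genes was 0.34 for the control pair and 0.066 for the heated pair. Over all tested genes these were 0.27 and 0.16, so the control pair was the wider there too. The shares of all tested genes with a wider control pair, or with control 2 above control 1, were not computed. Control 1 was the lowest of the 4 libraries for 7 of 10 genes, where it was the lowest for 34.9% of all tested genes, and it was the highest for RDR2 alone (33.8% of all tested genes). Over all tested genes, control 2 minus control 1 had a median log2 difference of -0.0039, beside 0.29 over the 10 genes.

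The second comparison followed the treatment label and set the other 3 libraries (30 °C) against control 1 (25 °C). It uses the same libraries as the first. With 1 library at 25 °C, the label and that library cannot be told apart, and the fit gave control 1 the same spread as the other libraries. Again 0 of 10 genes were called by edgeR's quasi-likelihood test, where 0.747% of 23285 tested genes were. At an unadjusted p under 0.05 there were 6 of 10, where 21.3% of all tested genes were under it. Of these 6, DCL1, DCL3a, RDR6, AGO1a and AGO1b had higher fitted levels at the 30 °C label and RDR2 a lower one.

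The lowest adjusted p there was 0.123, for DCL1, with 49.5 CPM in control 1 and 65.7 ± 0.904 CPM (SD, n = 3) in the other libraries, a log2 fold change of 0.41 (95% interval 0.15 to 0.66). RDR6 had 15.8 CPM in control 1 and 21.6 ± 0.915 CPM (SD, n = 3) in the others, a log2 fold change of 0.45 (edgeR adjusted p = 0.161). RDR2 had 26.6 CPM in control 1 and 20.6 ± 0.462 CPM (SD, n = 3) in the others, a log2 fold change of -0.37 (edgeR adjusted p = 0.177). In these genes the 3 libraries with the 30 °C label were close together and control 1 was outside their range. DCL3b and AGO4b did not show this separation, with log2 fold changes of 0.099 and -0.020. The share of counts in the most abundant genes, given above, also set control 1 apart, and its part in these differences was not tested.

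With a control left out, the spread of the fit comes from the heated pair alone, the closer of the pairs over all tested genes, and the lone control is assumed to vary as little. The p-values, intervals and call counts of these fits rest on that assumption. Without control 1, heated 1 and heated 2 were compared with control 2 alone. The count remained 0 of 10 (2.18% of tested genes called), and 4 genes had higher and 6 had lower fitted levels in heated leaves, against 7 and 3 with all libraries. Of all tested genes, 50.9% had higher fitted levels in heated leaves with all libraries and 50.3% without control 1. Without control 1 the fitted values of the 10 genes ran from -0.45 for DCL3b to 0.070 for RDR6 on the log2 scale. DCL1 was at 0.011 and RDR2 at 0.019. Without control 2 the count was again 0 of 10 (10.9% of tested genes called), with 3 of 10 at an unadjusted p under 0.05 (DCL1, RDR2 and RDR6, the lowest adjusted p being 0.0919 for DCL1) against 27.6% of tested genes.

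**Figure D3:**
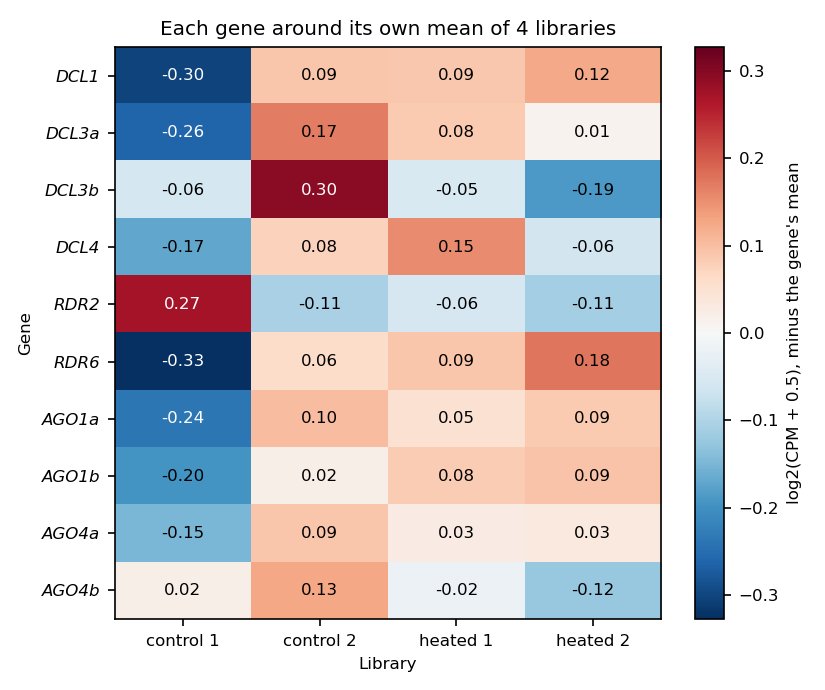
Level of each gene (rows) in each library (columns) as log2(CPM + 0.5) minus the mean of that gene over the 4 libraries; red is above and blue below that mean. The column of control 1 is blue for 8 genes, reaching -0.33 for RDR6, near 0 for AGO4b at 0.018 and red for RDR2 at 0.27.

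The 10 genes were also set side by side by the shape of their levels over the 4 libraries, as the Euclidean distance between profiles of log2(CPM + 0.5) centred on each gene's mean. DCL1 and RDR6 were the closest pair, at a distance of 0.065. AGO1a was the nearest gene for DCL3a, AGO1b and AGO4a, at 0.0971 for AGO1b and 0.104 for AGO4a. DCL3b and AGO4b, the genes that were lowest in heated 2 and highest in control 2, were nearest to each other at 0.198. RDR2 was the least alike gene for 7 of the other 9, and its own nearest gene, AGO4b, was 0.347 away. With 4 libraries these distances describe the profiles and were not tested.

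Ratios within a library do not depend on its scaling, and the lengths of the genes cancel when 1 ratio is compared between libraries. The log2 ratio of DCL3a to DCL3b counts was 2.54 in control 1 and 2.60 in control 2, beside 2.88 in heated 1 and 2.96 in heated 2. The controls were lower than the heated libraries, and the gap between groups, 0.35, exceeded the SD within each group (0.042 and 0.052, n = 2). Counting error of this ratio within 1 library reached 0.17 (SE), more than either SD. The SDs therefore cannot show how reliable the gap is. The counting error of that gap alone was 0.16 (SE), mostly from the scarce DCL3b. The log2 ratio of AGO4a to AGO4b was 0.55 in control 1, 0.68 in control 2, 0.77 in heated 1 and 0.88 in heated 2, a gap of 0.21 with a counting SE of 0.046 and an SD of 0.095 in the controls and 0.079 in the heated libraries. These groups did not overlap either, but control 2 and heated 1 were closer to each other than the libraries within each group. For levels of single genes, groups did not overlap in 40.5% of all tested genes. The share among ratios of other gene pairs was not computed. For AGO1a to AGO1b the controls had 0.57 and 0.69 and the heated libraries 0.58 and 0.60, so the heated values lay between the controls. These ratios are given as a description, and no test was run on them.

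**Figure D4:**
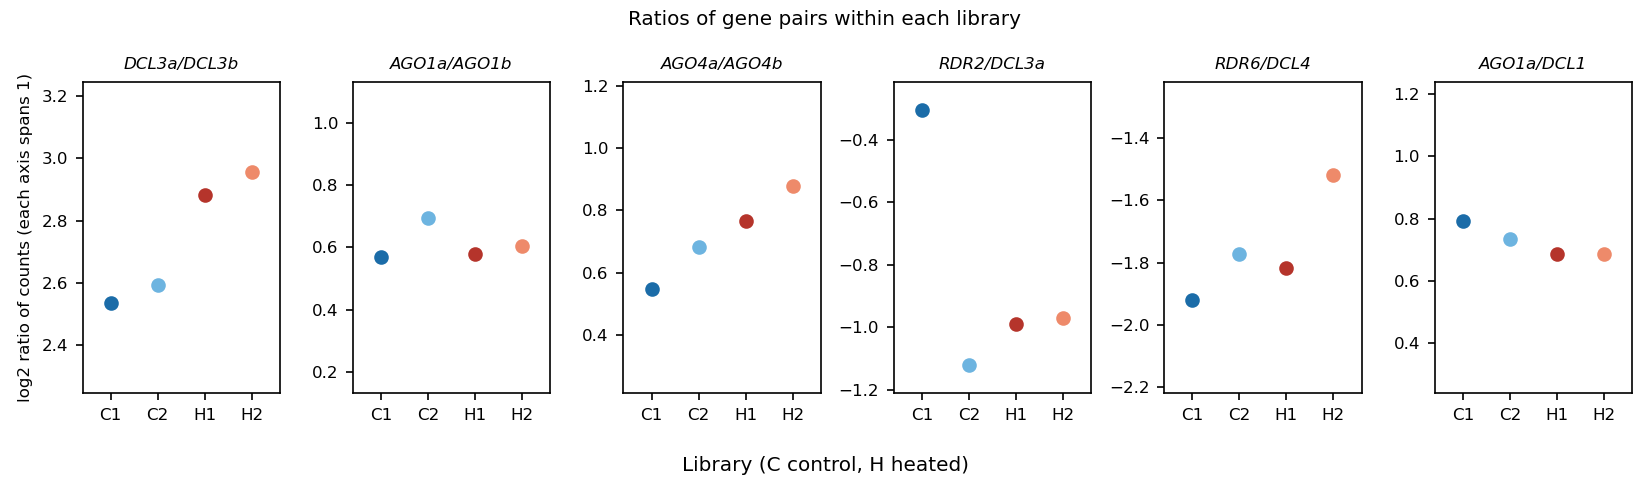
Log2 ratio of the counts of 2 genes within each library (C1, C2 control; H1, H2 heated); every vertical axis spans 1 log2 unit and none starts at 0. The heated libraries are above the controls for DCL3a/DCL3b and AGO4a/AGO4b and below them for AGO1a/DCL1. Control 1 is apart from the other 3 for RDR2/DCL3a.

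Ratios of genes that act in the same arm were added after their values had been seen. RDR2 to DCL3a, the polymerase and the Dicer of the DNA methylation arm, had a log2 ratio of -0.30 in control 1, while the other 3 libraries had -1.12 to -0.97. Control 1 thus had relatively more RDR2 and less DCL3a RNA than any other library. RDR6 to DCL4 ran from -1.92 in control 1 to -1.52 in heated 2, with overlapping groups. AGO1a to DCL1 was 0.79 in control 1, 0.73 in control 2 and 0.69 in both heated libraries, so these groups did not overlap. The gap was -0.077 with a counting SE of 0.057.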

How the data were processed

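RNA of 4 leaf libraries was sequenced from a strand-marking mRNA kit as paired ends, per the labels' protocols. Per the file headers, the authors deposited RSEM expected counts at gene level without normalization. FastQC 0.11.7, Trimmomatic, Bowtie2, edgeR 3.26.3 and the build IRGSP-1.0 are named in the submitters' processing notes. Settings, gene annotation and use of the strand were not given in these sources. Reads matching more than 1 gene are split by RSEM, which gives fractional counts. Of the 10 genes, 3 had such counts in at least 1 library (DCL1, RDR2 and, in control 2, AGO1a).

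Expected counts were rounded and fitted in R 4.3.3 with edgeR 4.0.16 (quasi-likelihood, TMM, filterByExpr with a minimum count of 10 and a total of 15, group as the only term), which tested 22184 genes. p-values were adjusted over all of them by Benjamini-Hochberg, with 0.05 as the threshold, and 155 genes were called. The SE is the log2 fold change over the square root of F, and 95% intervals use the degrees of freedom of the fit. The alternatives used DESeq2 1.42.0, limma 3.58.1 and the settings named in the closing section. All 10 listed genes are reported whatever their values. They and the pathway arms were chosen with earlier results of these data known. Other small RNA genes are not reported, because no source used here pairs them with IDs, and no sequences or coordinates were used.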

Additional observations from a re-analysis of the deposited data

How the results depend on the processing

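The count of called genes among the 10 was 0 under all 14 alternatives, and the lowest adjusted p in any heated against control fit was 0.0919. Of 140 log2 fold changes under an alternative, 133 kept their sign and 7 reversed. Most alternatives refitted the same 4 libraries in the same groups, where a sign could hardly change. All 7 reversals came from leaving out 1 library or from grouping by the treatment label. Without control 1 the values of DCL3a (-0.13), DCL4 (-0.029), AGO1a (-0.036) and AGO4a (-0.066) were below 0 and that of RDR2 (0.019) above it, and without heated 1 DCL4 was at -0.016. At the other end, without control 2, they were 0.30, 0.21, 0.29, 0.17 and -0.38. DCL3b was at 0.099 when grouped by the treatment label. The cause was not tested. Over all genes, 155 were called, against 419 without a filter on low counts, 551 with DESeq2, 732 with edgeR's exact test and 532 with a replicate block. Leaving out 1 library gave 64 to 2506, with the spread taken from the pair that was left whole. Equal replicate numbers were not treated as pairs: the replicate differences of control and heated had a correlation of -0.015 across genes. Grouped by the treatment label, the log2 ratio gap was 0.28 for DCL3a to DCL3b and 0.054 for AGO1a to AGO1b (-0.041 by title). Without 1 library the gaps were 0.32 to 0.39 for DCL3a to DCL3b, 0.14 to 0.27 for AGO4a to AGO4b and -0.10 to 0.020 for AGO1a to AGO1b, the last without control 2. DCL3b, at 82 to 127 counts, is the gene that depth limits most.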
